A study of Mus musculus with 6 samples.

Results

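The genes described here encode the protein components of the cytosolic ribosome. They were chosen by symbol alone, as every gene of the deposited table named Rpl or Rps followed by a number (with a or x where the name has one), together with Rpsa and the stalk genes Rplp0, Rplp1 and Rplp2. The rule took 77 of 23358 table entries, 46 for the large subunit and 31 for the small subunit, each listed once and spread over 19 chromosomes. All 77 passed the filter on low counts, and none was at 0 in any library. Ribosomal proteins that carry other names (such as Fau and Gnb2l1) and paralogs with an added letter fell outside the rule and are given separately.

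The ribosome joins a small subunit, which reads the messenger RNA, to a large subunit, which forms the peptide bond, and each is built from ribosomal RNA and many proteins used mostly in equal copy number. The genes for these proteins are scattered over the genome, yet they are transcribed in concert and their messenger RNAs begin with a pyrimidine-rich tract (the 5′ terminal oligopyrimidine, or TOP, tract) through which mTOR signalling sets their translation. Chondrocytes that lay down cartilage secrete collagen and proteoglycan in bulk.

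The RNA came from immature mouse chondrocytes, isolated at post-natal day 5 from the femoral head, the femoral condyles and the tibial plateau of C57BL/6 - mix mice. Ezh2-deficient cells, whose sample titles read cKO, were set against wildtype cells. Ezh2 is the catalytic subunit of Polycomb repressive complex 2, a histone methyltransferase that keeps genes silent. The labels give neither the Cre driver nor the deleted part of the gene, nor whether cells of several animals were pooled. Both genotypes were grown as micromasses, which are dense drops of cells, in DMEM with serum, insulin-transferrin-selenium, ascorbic acid and β-glycerol phosphate, and RNA was taken after 3, 7 or 14 days. Each genotype gave 1 library per day, 6 libraries in all, so no test within a day was possible.

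Depth ran from 51985214 to 79323302 gene counts per library. Ezh2 had 14.7, 23.0 and 17.6 CPM (counts per 1000000 counts, scaled for library composition) in Ezh2-deficient cells at days 3, 7 and 14, against 24.7, 40.2 and 27.9 CPM in wildtype cells, lower on each day. Its difference over the 3 days did not pass (log2 fold change -0.74, adjusted p = 0.0729, edgeR's quasi-likelihood test), and the counts per gene cannot say how much of this signal crosses the deleted part. Of 12 chondrocyte markers tested, 12 were lower at day 14 than at day 3 and none was higher, where 22.4% of all genes tested were lower. The 4 hypertrophic chondrocyte, 7 osteoblast and 7 macrophage markers tested were all higher, as were 5 of 6 fibroblast markers. Of all genes tested, 23.2% were higher. Summed chondrocyte markers stood at 125500, 51400 and 20970 CPM in Ezh2-deficient cells at the 3 days, against 129400, 73150 and 34730 CPM in wildtype cells. Between days 3 and 14 summed hypertrophic markers went from 1043 to 4261 CPM in Ezh2-deficient and from 853 to 8667 CPM in wildtype cells. Hba-a1 and Hbb-b1, the defining erythroid markers, were at 0 in all libraries, and summed endothelial and skeletal muscle markers did not exceed 6.19 and 5.30 CPM.

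Ribosomal protein genes were among the most abundant transcripts of these cultures. In Ezh2-deficient micromasses they took 5.04%, 3.57% and 3.11% of all gene counts at days 3, 7 and 14, and in wildtype micromasses 5.94%, 3.47% and 2.99%. The widest exact 95% binomial interval, that of the wildtype library at day 3, ran from 5.93% to 5.95% and covers counting error only. Both day 3 libraries thus stood above the other 4, the wildtype one highest. Per unit of coding length, on the authors' RPKM scale, the median ribosomal protein gene had 659, 478 and 402 RPKM in Ezh2-deficient cells at the 3 days and 819, 483 and 411 RPKM in wildtype cells, while the median of all genes tested lay between 3.88 and 5.05 RPKM. Of the 100 entries with the highest RPKM in a library, 56, 46 and 44 were ribosomal protein genes in Ezh2-deficient cells at days 3, 7 and 14, and 60, 41 and 39 in wildtype cells.

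**Figure D1:**
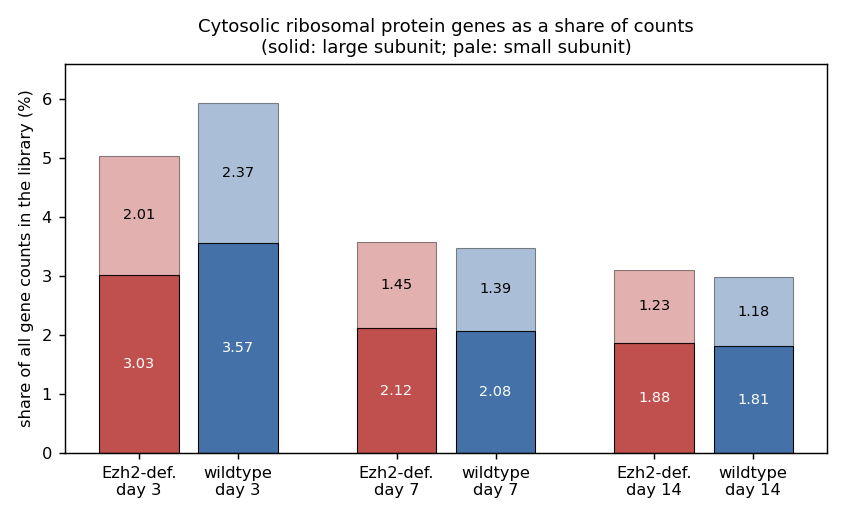
Share of all gene counts taken by the 77 ribosomal protein genes in each of the 6 libraries (percent; 1 library per bar, no error bar), with the large subunit solid and the small subunit pale. The share was 5.04% in the Ezh2-deficient and 5.94% in the wildtype library at day 3, and between 2.99% and 3.57% in the later 4.

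The balance between the subunits moved little. Summed counts of large-subunit genes were 1.504, 1.459 and 1.523 times those of small-subunit genes in Ezh2-deficient cells at days 3, 7 and 14, and 1.504, 1.495 and 1.536 times in wildtype cells. These ratios are not copy numbers, since transcripts differ in length.

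Levels differed widely between members. The mean RPKM over the 6 libraries had a median of 540 and an upper quartile 1.96 times the lower one, but the highest member was 488-fold above the lowest, and 96.7-fold above the lowest once the 4 members with a shared span (next paragraph) are left out. The highest were Rplp1 (1443 RPKM), a stalk protein, Rpl41 (1426 RPKM), the shortest ribosomal protein, Rps12 (1323 RPKM), Rpl13a (1080 RPKM), Rpl39 (1041 RPKM), which lines the exit tunnel, and Rpl10 (1011 RPKM), which joins the large subunit late in its assembly. These 6 were the members above a mean of 1000 RPKM. At the other end, 8 members averaged under 100 RPKM, namely Rpl26 (2.96 RPKM), Rps27 (3.12 RPKM), Rpl30 (8.12 RPKM), Rpl34 (9.12 RPKM), Rps23 (14.9 RPKM), Rps15a (16.2 RPKM), Rpl31 (38.3 RPKM) and Rplp2 (80.4 RPKM). The rank order of the 77 members was kept between libraries, with Spearman correlations of RPKM from 0.958 to 0.994 over the 77 genes of any 2 libraries.

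Of these 8 low members, 4 overlapped another gene model of the table. Rpl26, Rps27, Rpl30 and Rpl34 each shared at least 90% of their span, reciprocally, with a second entry of the table (Gm15772, Gm9846, Gm12191 and Rpl34-ps1), and no other member did. Rpl34 lies at chr3:130726831-130730308 and Rpl34-ps1 at chr3:130726837-130730329. Rpl34-ps1 had 167, 113 and 98.7 CPM in Ezh2-deficient cells at the 3 days and 207, 98.8 and 93.4 CPM in wildtype cells, against 9.69, 6.28 and 5.47 CPM (Ezh2-deficient) and 10.0, 5.05 and 4.18 CPM (wildtype) for Rpl34 itself. Gm15772 and Gm9846 were listed at 0 in every library, and Gm12191 stayed at or below 0.303 CPM. The values of these 4 members, which stay in the counts below, are therefore not taken as transcript levels, and what the counting did with reads in the shared spans was not tested. The other 4 low members had no such partner. Rps15a is listed with a coding length of 5134 bases, beside a median of 703 for the members, and RPKM is scaled by that length. At day 3 it had 133 CPM in Ezh2-deficient and 158 CPM in wildtype cells, above Rplp2 with 59.7 and 64.3 CPM.

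Sequence shared with other genes is a further limit for this family, whose messenger RNAs have left many processed pseudogenes in the genome. Of the 76 members found by name in the GENCODE M21 transcripts, the median had 38.4% of its 50-base stretches in a transcript of another gene, and the highest 95.1%, for Rpl35. Across those 76 genes the shared portion had a Spearman correlation of 0.0757 with mean RPKM and of 0.131 with the log2 fold change at day 14 against day 3. Members with a large shared portion are uncertain in level. Small nucleolar RNAs lie inside many of these genes, in 30 of the 77 (39%, 58 small nucleolar RNAs in all) against 2.54% of all genes tested, by the GENCODE annotation.

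The first comparison asked how the ribosomal protein genes changed over culture time. At day 14 against day 3, 76 of the 77 fell and none rose (edgeR's quasi-likelihood F test, adjusted p under 0.05 over all 16280 genes tested, genotype in the model), where 22.4% of all genes tested fell. The median log2 fold change was -0.88, a level 0.545 times that of day 3, beside -0.02 for all genes tested. At day 7 against day 3 the same count fell, 76 of 77 with a median of -0.80, where 16.6% of all genes tested fell. Between days 7 and 14 none of the 77 passed and none reached an unadjusted p under 0.05 (smallest adjusted p 0.229, median -0.07). DESeq2 and limma-voom also called none there, while 5.66% of all genes tested passed. In all 77 genes both day 3 libraries lay above the other 4, which held for 30.1% of all genes tested. Most members had far more counts than the median gene, and a given change passes more easily at high counts. The shares of all genes are therefore not matched to the members for abundance. The 2 genotypes stood in for replicates of a day, and no label says that libraries came from separate cultures. The p-values of these day tests thus rest on the scatter left once genotype and day are fitted (2 residual degrees of freedom). That scatter holds any genotype difference that changed with day as well as technical spread, and these cannot be told apart. In whole cultures fewer cells of a type and less RNA per cell cannot be told apart, and the makeup of the cultures moved with time. Summed macrophage markers stood at 101, 1370 and 2533 CPM in Ezh2-deficient cells at days 3, 7 and 14 and at 139, 1312 and 1787 CPM in wildtype cells, beside the summed chondrocyte markers given above. Summed osteoblast markers stood at 1326, 8249 and 95680 CPM in Ezh2-deficient cells and at 802, 6758 and 44320 CPM in wildtype cells, and summed fibroblast markers at 3214, 15270 and 59630 CPM in Ezh2-deficient cells and at 2289, 11790 and 35410 CPM in wildtype cells. The part of these cell types in the result was not tested.

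**Figure D2:**
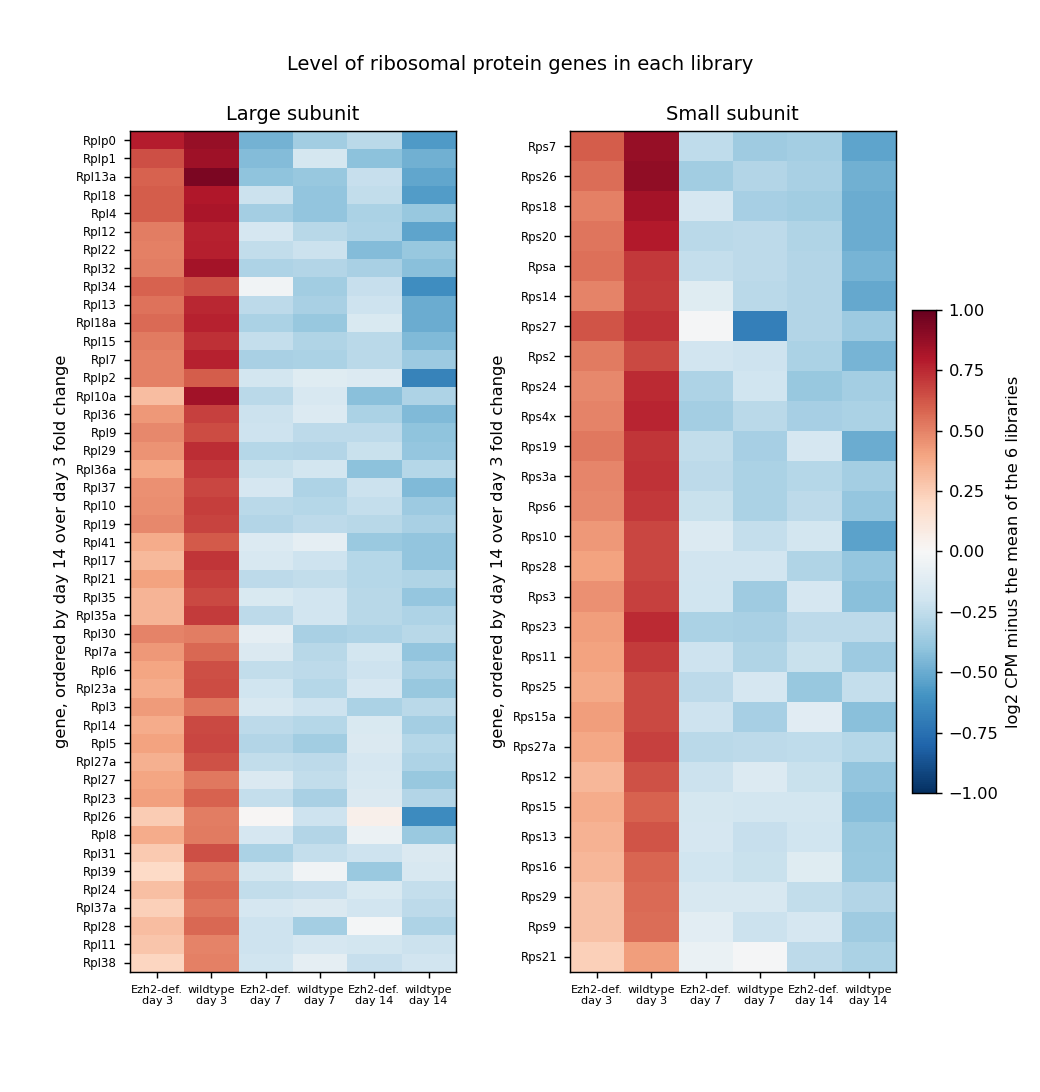
Level of 74 of the 77 genes in each library, as log2 CPM minus the gene's mean over the 6 libraries, for the large subunit (left) and the small subunit (right), ordered by the change at day 14 against day 3. The day 3 columns are red in every row, and the 4 later columns are pale or blue.

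The stalk is the flexible arm of the large subunit that recruits elongation factors, and it consists of Rplp0 with pairs of Rplp1 and Rplp2. Rplp0 had 2680, 1117 and 1285 CPM in Ezh2-deficient cells at days 3, 7 and 14, and 2838, 1218 and 1049 CPM in wildtype cells. Both day 3 libraries were above every later one, and Rplp0 fell by 1.24 ± 0.16 (SE) on the log2 scale at day 14 against day 3 (edgeR adjusted p = 0.00248). Rplp1 had 1224, 581 and 590 CPM in Ezh2-deficient cells and 1413, 692 and 562 CPM in wildtype cells at the same days. It fell by 1.19 ± 0.13 (adjusted p = 0.00156, edgeR). Rplp2 was far lower, with 59.7, 37.1 and 38.4 CPM in Ezh2-deficient cells and 64.3, 38.9 and 26.5 CPM in wildtype cells, and it fell by 0.95 ± 0.17 (edgeR adjusted p = 0.00866). The 3 stalk genes thus fell together, and Rplp0 and Rplp1 had the largest changes of the large subunit.

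In the small subunit all 31 genes fell, with a median log2 fold change of -0.91. One of the deeper falls was that of Rps7, which assembles early onto the body of the subunit. Rps7 had 918, 507 and 478 CPM in Ezh2-deficient cells, against 1102, 471 and 418 CPM in wildtype cells. Both day 3 libraries lay above every later one, while days 7 and 14 overlapped. Rps7 fell by 1.17 ± 0.15 on the log2 scale at day 14 against day 3 (adjusted p = 0.00239, edgeR).

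Small-subunit proteins with known roles outside the bare structure followed the same course. Rps6, the substrate of the S6 kinases, had 1177, 722 and 705 CPM in Ezh2-deficient cells at the 3 days and 1375, 675 and 644 CPM in wildtype cells, with a log2 fold change of -0.92 at day 14 against day 3. Rpsa, also described as a laminin receptor, changed by -1.01, and Rps3, which also acts in DNA repair, by -0.86. Rps19, whose human counterpart is mutated in Diamond-Blackfan anaemia, changed by -0.95, and Rps14, whose human counterpart is lost in the 5q- syndrome, by -1.01. Rps27a, made as a fusion with ubiquitin, changed by -0.81. The X-linked Rps4x changed by -0.96. All 7 passed the edgeR test, with adjusted p between 0.00266 (Rps4x) and 0.00748 (Rps3).

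In the large subunit 45 of 46 genes fell, with a median log2 fold change of -0.87. After Rplp0 and Rplp1 the deepest fall was that of Rpl13a, known in human monocytes for leaving the ribosome to silence interferon-induced messages. Rpl13a (chr7:45125563-45128745) had 1929, 972 and 1090 CPM in Ezh2-deficient cells at days 3, 7 and 14, against 2460, 986 and 892 CPM in wildtype cells. It fell by 1.14 ± 0.18 (edgeR adjusted p = 0.0053), and its wildtype library at day 3 was the highest of the 6. Rpl5 and Rpl11, which carry the 5S ribosomal RNA and can bind Mdm2, changed by -0.75 and -0.58. Rpl11 had 590, 421 and 430 CPM in Ezh2-deficient cells and 689, 433 and 421 CPM in wildtype cells, so the 4 later libraries lay close together.

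Other large-subunit members gave a similar picture at different depths. Rpl3, which lies near the peptidyl transferase centre, changed by -0.78 and Rpl22, whose loss in mice impairs a T cell lineage, by -1.05. Rpl10a changed by -0.94, the X-linked Rpl39 by -0.63 and the very short Rpl41 by -0.88. Rpl38, which in mouse embryos is needed for translation of a set of Hox messages, had the smallest change of all 77. Its levels were 319, 240 and 235 CPM in Ezh2-deficient cells at the 3 days, against 391, 258 and 240 CPM in wildtype cells, and it fell by 0.57 ± 0.11 (edgeR adjusted p = 0.00879). The 1 member that did not pass was Rpl26, with 2.31, 1.96 and 2.01 CPM in Ezh2-deficient cells and 2.76, 1.67 and 1.25 CPM in wildtype cells (log2 fold change -0.66 ± 0.31, adjusted p = 0.136, edgeR). It is one of the 4 genes that shared their span with a second entry.

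The start regions of members at both ends of this range are shown because the TOP tract lies at the very start of the messenger RNA. RefSeq promoter windows (build GRCm38.p6) were found for 56 of the 77 genes, as 66 windows. Below are the 30 bases before and the 30 bases from the annotated start, 5′ to 3′ on the strand of the gene, for the 3 members with the largest and the 3 with the smallest falls among those with a single window. Capitals mark CTTTC or CTTCC where either stood between 10 bases before and 20 bases after the start on the sense strand. The first 3 are the largest falls, Rplp0 (chr5:115559437-115559496, plus strand), Rps7 (chr12:28635924-28635983, minus strand) and Rpl13a (chr7:45128716-45128775, minus strand), and the other 3 the smallest, Rpl28 (chr7:4792935-4792994, plus strand), Rpl11 (chr4:136053364-136053423, minus strand) and Rpl38 (chr11:114668550-114668609, plus strand).
Rplp0: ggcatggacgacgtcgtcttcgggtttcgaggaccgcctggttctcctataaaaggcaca
Rps7: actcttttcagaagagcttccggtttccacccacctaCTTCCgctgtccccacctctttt
Rpl13a: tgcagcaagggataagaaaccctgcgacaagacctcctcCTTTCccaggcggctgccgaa
Rpl28: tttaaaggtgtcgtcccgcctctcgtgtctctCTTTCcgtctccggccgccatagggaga
Rpl11: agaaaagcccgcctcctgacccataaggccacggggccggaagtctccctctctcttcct
Rpl38: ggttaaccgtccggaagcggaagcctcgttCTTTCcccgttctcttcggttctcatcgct

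CTTTC or CTTCC was marked in 2 of the 3 windows with the largest falls and in 2 of the 3 with the smallest, so these letters did not separate the ends of the range. The tally depends on the start used. In Rpl11 CTTCC stood just past the stretch searched, and the deposited table puts the 5′ end of this gene at 136053371, inside the window. Of all 66 windows, 34.8% held one of them (22 genes), against 9.8% of the 32851 windows of all genes. CCGGAAG, the core bound by ETS factors and searched on both strands of the whole promoter window, stood in 36.4% of the 66 windows and in 8.86% of all windows. It is seen in the windows of Rpl11 and Rpl38 and, on the opposite strand, in that of Rps7. Its reverse complement contains CTTCC, so the first and second searches can overlap. The core bound by YY1 was in 6.06% against 0.852%, also on both strands, but this was 4 windows of only 2 genes. TATAAA in the 50 bases before the start, on either strand, was in 0 of the 66 windows and in 3.5% of all windows. In Rplp0 these letters lay after the annotated start. RefSeq gives the start of the annotated transcript, which may differ from the start used in these cells, and a match is not evidence of binding.

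The second comparison asked whether Ezh2-deficient and wildtype cells differed in these genes. Taken over the 3 days, none of the 77 passed (edgeR's quasi-likelihood F test with day in the model), where 0.0123% of all genes tested passed, and DESeq2 and limma-voom also called none. The 3 days stood in for replicates, so a genotype difference that changed from day to day counted as scatter in this test. The 77 log2 fold changes ran from -0.25 to 0.21 with a median of -0.03, beside a median near 0 for all genes tested (-0.00182). By sign 33 were above 0 and 44 below, where 49.7% of all genes tested were above 0. A single gene reached an unadjusted p under 0.05, the X-linked Rpl39, with 572, 439 and 385 CPM in Ezh2-deficient cells at days 3, 7 and 14 and 720, 486 and 446 CPM in wildtype cells. Rpl39 was lower in the Ezh2-deficient library of every pair. Its log2 fold change was -0.23 ± 0.09 (edgeR's quasi-likelihood test, adjusted p = 0.356), and 6.33% of all genes tested were lower at that unadjusted mark.

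The sign of the average depended on which day was included. Without the day 3 pair the median was 0.08 and 61 members were above 0, without the day 7 pair -0.06 and 20 members, and without the day 14 pair -0.10 and 5 members. None of the 77 passed in any of these fits. Summed over the members, the share of counts was lower by 0.898 percentage points in the Ezh2-deficient library at day 3 and higher by 0.101 and 0.114 points at days 7 and 14. The mean difference over the 3 pairs was -0.228 ± 0.581 points (SD, n = 3, exact two-sided sign-flip permutation p = 1.0), and with 3 pairs that test cannot go below 0.25.

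By day, the genotype ratio of the members shifted as a block. At day 3 all 77 were lower in the Ezh2-deficient library, where 50.1% of all genes tested were, and the median log2 ratio was -0.26. At day 7 the median was 0.02, and 47 of 77 were higher against 49.1% of all genes. At day 14 it was 0.14, and 65 of 77 were higher against 49.9%. With total counts as the scale the medians at days 7 and 14 were 0.05 and 0.06, beside 0.02 and -0.08 for all genes. With 1 library per genotype and day these values have no replicate check. With 1.2-fold as the mark and a counting interval that excludes 1, 33 members were lower at day 3 (8.96% of all genes tested), 2 were higher at day 7 (12.3%) and 14 were higher at day 14 (13.9%). Shares at days 7 and 14 were thus below or near the background, and no member differed by 2-fold or more on any day. Most members had far more counts than the median gene, which narrows the counting interval. The shares of all genes are therefore not matched to the members for abundance.

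**Figure D3:**
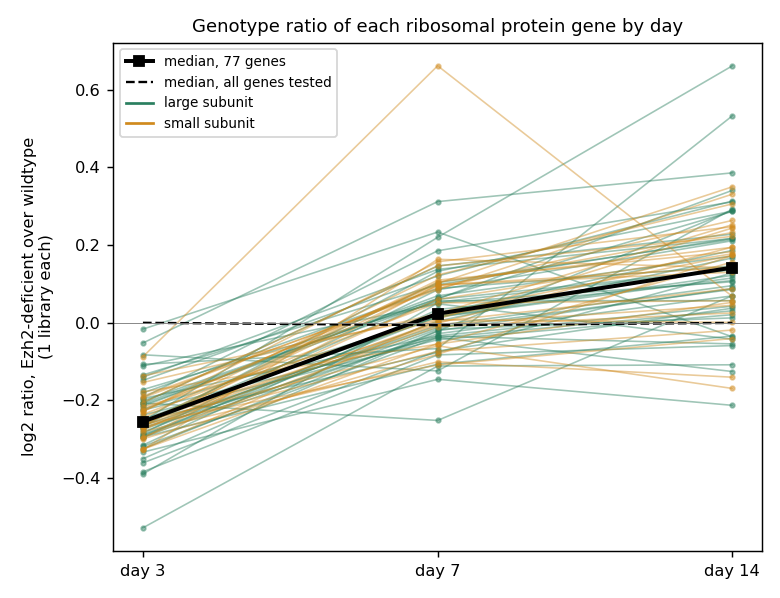
Log2 ratio of Ezh2-deficient over wildtype CPM for each of the 77 genes at days 3, 7 and 14 (1 library per genotype and day), with the median of the 77 (squares) and of all genes tested (dashed). All 77 lines start below 0 at day 3, and the median passes through 0.02 at day 7 to 0.14 at day 14.

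The member with the lowest ratio at day 3, and so the largest difference, was Rpl10a, which lies beside the exit site of the transfer RNA. It had 609 CPM in the Ezh2-deficient and 878 CPM in the wildtype library, a ratio of 0.693 with an exact 95% counting interval of 0.681 to 0.705. At days 7 and 14 Rpl10a had 407 and 369 CPM in Ezh2-deficient cells, against 440 and 397 CPM in wildtype cells, so it was lower in all 3 pairs. Over the days its log2 fold change was -0.25 ± 0.12 and did not pass (edgeR adjusted p = 0.435). Of 77 members, 10 were lower in the Ezh2-deficient library on all 3 days, against 18.6% of all genes tested. Among the 10 were Rpl10a, Rpl22, Rpl31, Rpl38, Rps24 and Rps25, and they were singled out after their values were seen. The X-linked Rpl36a, Rpl39 and Rps4x were also among them, and the X-linked Rpl10 was not. The share of all X-linked genes with this pattern was not computed, so nothing is concluded about X-linked members.

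Of the other named members for this comparison, 4 were on the higher side. Rpl34 and Rps27 had log2 fold changes of 0.21 ± 0.15 and 0.21 ± 0.23, Rpl26 one of 0.20 ± 0.25, and Rpl18 one of 0.10 ± 0.12, and none passed (adjusted p from 0.586 to 0.774, edgeR). Rpl34, Rps27 and Rpl26 shared their span with a second entry, and their values are not taken as transcript levels. For Rpl34-ps1, which shares the span of Rpl34, the log2 fold change was -0.01 ± 0.11 (adjusted p = 0.967, edgeR). Rps27 had 82 fragments in the Ezh2-deficient and 46 in the wildtype library at day 7, a ratio of 1.58 with a counting interval of 1.10 to 2.34. At days 3 and 14 its interval included 1. Among those lower, Rpl31 had -0.18 ± 0.09 (adjusted p = 0.461, edgeR).

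The third comparison asked whether the genotype difference changed with time, as the slope of the log2 genotype difference per doubling of day. No member passed (edgeR, smallest adjusted p 0.204 for Rps15a), where 0.614% of all genes tested passed, and DESeq2 and limma-voom called none either. At an unadjusted p under 0.05 there were 32 members with a positive and none with a negative slope, where 5.01% of all genes tested were positive at that mark. The slope was positive in 77 of 77, against 49.1% of all genes, with a median of 0.18 per doubling beside -0.00381 for all genes. With total counts as the scale it was positive in 75, Rpl3 and Rpl30 being just below 0, and with no filter or a minimum count of 50 in 76. The members vary together from library to library, so these counts do not stand for that many independent results. The slope rests on 6 libraries with 1 residual degree of freedom.

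Rps15a had 133, 86.0 and 91.9 CPM in Ezh2-deficient cells at days 3, 7 and 14, against 158, 79.0 and 74.4 CPM in wildtype cells. It was lower in the Ezh2-deficient library at day 3 and higher at days 7 and 14, with a slope of 0.25 ± 0.07 per doubling (edgeR adjusted p = 0.204). Rps10, whose human counterpart is also a Diamond-Blackfan anaemia gene, had 529, 354 and 343 CPM in Ezh2-deficient cells and 619, 330 and 269 CPM in wildtype cells (slope 0.26 ± 0.07, edgeR adjusted p = 0.229). Rpl13a, whose levels stand above, crossed between days 7 and 14, with a slope of 0.29 ± 0.08 (edgeR adjusted p = 0.243). The steepest estimates after Rpl26 (0.42 ± 0.22) were those of Rpl13a and Rplp2 (0.28 ± 0.10), and the flattest those of Rpl30 (0.00277 ± 0.14) and Rpl3 (0.03 ± 0.08). Rpl26 and Rpl30 shared their span with a second entry, and their values are not taken as transcript levels.

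The same numbers can be read as the course within each genotype. At day 14 over day 3 the median log2 ratio of the 77 was -0.69 in Ezh2-deficient cells and -1.06 in wildtype cells. The wildtype ratio was the lower one in 76 of 77 members, against 49.3% of all genes tested. The exception was Rpl30, one of the members that shared their span with a second entry. A fall of 2-fold or more was seen for 3 members in Ezh2-deficient cells and for 51 in wildtype cells, against 10.1% and 8.72% of all genes. As a share of all counts, the members stood at 0.616 times their day 3 value in Ezh2-deficient cells at day 14, and at 0.504 times in wildtype cells. Members that changed most in one genotype tended to change most in the other, with a Spearman correlation of 0.723 over the 77 genes between the 2 genotypes' day 14 over day 3 ratios, which come from separate libraries. The day 3 pair enters this contrast and the genotype ratios above alike, so the 2 descriptions are not independent. Of the 77, 45 were lower in the Ezh2-deficient library at day 3 and higher at both later days, against 14.1% of all genes tested.

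**Figure D4:**
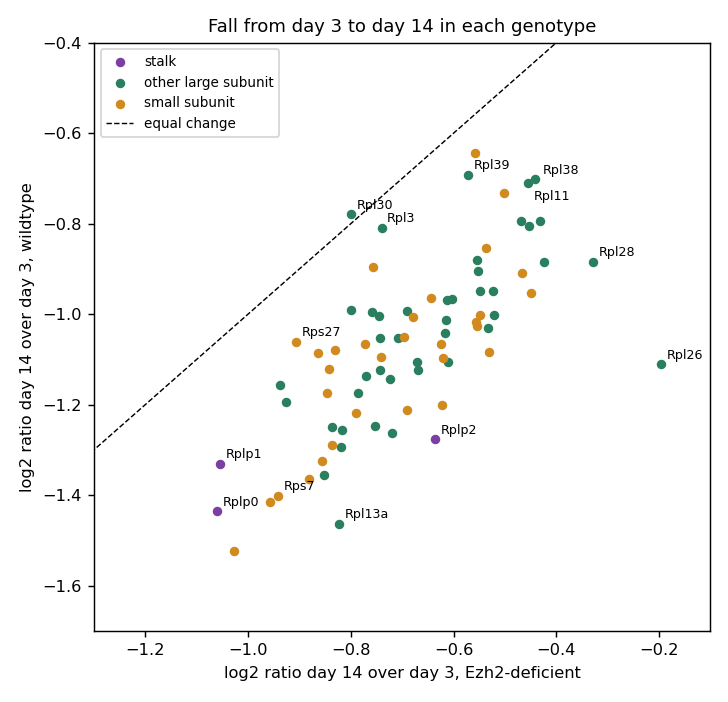
Log2 ratio of day 14 over day 3 for each member in Ezh2-deficient cells (x axis) and in wildtype cells (y axis), with stalk, other large-subunit and small-subunit genes in different colours and the dashed line for equal change. All points but Rpl30, a member with a shared span, lie below the line, which means a lower ratio in wildtype cells. The median was -0.69 in Ezh2-deficient cells and -1.06 in wildtype cells.

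Counts of Rn45s, the table entry for ribosomal RNA, moved the other way at day 3. Whether they came from precursor or from mature ribosomal RNA was not tested. Rn45s took 2.98%, 2.51% and 2.28% of counts in Ezh2-deficient libraries at days 3, 7 and 14, against 1.82%, 1.66% and 2.06% in wildtype libraries. Its genotype difference did not pass (log2 fold change 0.50 ± 0.19, edgeR adjusted p = 0.353). With Rn45s left out of the total, the share of the ribosomal protein genes at day 3 was 5.195% in the Ezh2-deficient and 6.049% in the wildtype library. Summed proliferation markers were higher in the Ezh2-deficient library at day 3 and lower at days 7 and 14. The sum was 537, 958 and 423 CPM in Ezh2-deficient cells and 441, 1483 and 990 CPM in wildtype cells. Of 10 markers, 6 had a falling slope that passed the edgeR test, as did 90 of all 16280 genes tested. None of the 10 passed the edgeR test for genotype (smallest adjusted p 0.409). Summed chondrocyte markers at day 3 were 125500 CPM in Ezh2-deficient and 129400 CPM in wildtype cells. All 7 osteoblast markers were higher in the Ezh2-deficient library on each of the 3 days, though none passed the edgeR test for genotype (smallest adjusted p 0.0559), with the sums given above. Summed adipocyte markers were 71.8, 333 and 121.5 CPM in Ezh2-deficient cells, against 12.5, 168 and 64.7 CPM in wildtype cells, with all 4 higher on each day. The part of any of these in the ribosomal protein values was not tested.

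Ribosomal proteins named outside the rule changed in the same direction with time. Gnb2l1, the older symbol of Rack1, a scaffold on the small subunit, had 1360, 772 and 784 CPM in Ezh2-deficient cells and 1609, 655 and 615 CPM in wildtype cells, and fell by 1.10 ± 0.17 at day 14 against day 3 (edgeR adjusted p = 0.00532). Fau, which encodes a small-subunit protein as a fusion with a ubiquitin-like protein, fell by 0.53 (edgeR adjusted p = 0.0306). Of 6 paralogs tested 5 fell, where 22.4% of all genes tested fell, with log2 fold changes of -1.10 for Rpl39l, -0.68 for Rpl22l1, -0.61 for Rps27l, -0.59 for Rpl36al and -0.54 for Rps4y2, the symbol RefSeq lists as a synonym of Rps4l. Rpl7l1, with -0.23, did not pass (adjusted p = 0.114, edgeR). Rpl10l was at 0 in every library, and Rpl3l, the paralog of striated muscle, was at or below 0.152 CPM.

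The rest of the translation machinery was set beside the ribosomal proteins by its counts. Of 18 translation factors whose messages begin with a TOP tract, 18 fell at day 14 against day 3, where 22.4% of all genes tested fell, with a median log2 fold change of -0.67. Eef1a1, the elongation factor that brings aminoacyl-transfer RNA, had 9156, 4412 and 4477 CPM in Ezh2-deficient cells at the 3 days, against 10300, 4438 and 4384 CPM in wildtype cells (-1.13 ± 0.16, edgeR adjusted p = 0.00371). Eef1g, a subunit of its exchange factor, fell by 1.2 and Pabpc1, the poly(A)-binding protein, by 0.94. Of 28 other initiation factors 18 fell and none rose, beside the same 22.4%, with a median of -0.41, among them Eif1 (-0.88), which acts in start codon choice, and Eif3i (-0.83), a subunit of the scaffold complex eIF3.

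Ribosome assembly and mitochondrial ribosomes changed less in the median, and their counts stand beside the 22.4% of all genes tested that fell. Of 50 ribosome biogenesis genes 37 fell and none rose, with a median of -0.56, with the smallest p for Ltv1 (-1.29), an export factor of the small subunit, and including Npm1 (-1.11), a nucleolar chaperone, and Nop56 (-0.71), a core protein of small nucleolar ribonucleoproteins. Of 14 genes of RNA polymerase I and its factors 5 fell, with a median of -0.32, including its largest subunit Polr1a (-0.63). Of 76 mitochondrial ribosomal protein genes 40 fell and none rose, with a median of -0.37, including Mrpl24 (-1.11) and Mrps28 (-0.95). Their share of all counts was 0.211%, 0.206% and 0.167% in Ezh2-deficient libraries at days 3, 7 and 14 and 0.219%, 0.201% and 0.174% in wildtype libraries. No difference between these lists was tested.

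**Figure D5:**
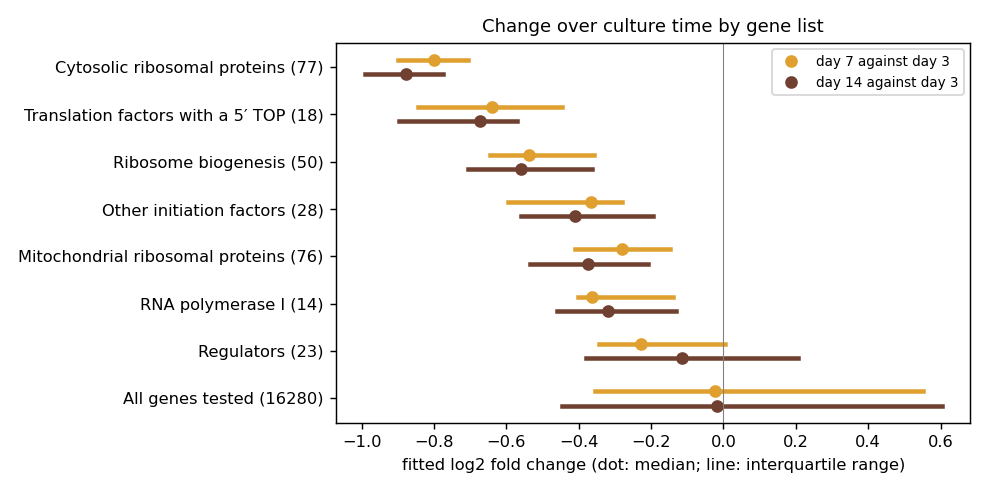
Fitted log2 fold changes against day 3 for ribosomal protein genes and related lists at day 7 and day 14 (number of genes tested in brackets), with the dot for the median and the line for the interquartile range. The cytosolic ribosomal proteins had medians of -0.80 and -0.88, and all genes tested lay around 0.

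Of 23 known regulators of these genes, 4 rose and 7 fell at day 14 against day 3, where 23.2% of all genes tested rose and 22.4% fell, so the list lay near the background. Myc, a transcription factor that drives ribosome production, had 50.3, 30.9 and 32.4 CPM in Ezh2-deficient cells and 48.5, 24.0 and 22.9 CPM in wildtype cells, and fell by 0.86 ± 0.13 (edgeR adjusted p = 0.00472). Mycn, its relative, rose (adjusted p = 0.000816, edgeR), with 0.135, 0.280 and 2.63 CPM in Ezh2-deficient cells and 0.091, 0.284 and 2.36 CPM in wildtype cells. Its day 3 values were at or close to the floor of 3 fragments, so no fold is given. Eif4ebp1, the cap-binding inhibitor that mTOR phosphorylates, had 162, 70.0 and 87.9 CPM in Ezh2-deficient cells and 156, 35.8 and 47.5 CPM in wildtype cells, and fell by 1.32 ± 0.23 (edgeR adjusted p = 0.00764). Rps6kb1, an S6 kinase, rose by 0.64 ± 0.08 (edgeR adjusted p = 0.00266). Larp1, which binds the TOP tract, did not pass (-0.20, edgeR adjusted p = 0.16), nor did Mtor (0.24, adjusted p = 0.0747, edgeR).

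For the genotype difference, no gene of any of these lists passed the edgeR test. At day 3 the median log2 ratio of Ezh2-deficient over wildtype was -0.16 for the TOP translation factors, beside -0.26 for the ribosomal proteins. It was -0.07 for the mitochondrial ribosomal proteins, -0.02 for ribosome biogenesis and -0.01 for the other initiation factors, without a replicate at that day.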

How the data were processed

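Counts per gene were deposited as whole numbers, not normalized, and all were even, so 2 counts were taken as 1 fragment. The deposited RPKM values, scaled by the authors for coding length and library total per the file headers, were used to compare levels between genes and to describe the family's level and share in each library. CASAVA 1.9, TopHat 12.0.6, HTSeq and the mouse build mm10 are named in the submitters' processing notes. For annotation, strandedness and filters nothing is given in the sources used here. Overlapping, antisense and near-identical genes therefore cannot be told apart with certainty. Coordinates are those of the deposited table, and 76 of the 77 genes overlapped the RefSeq gene of the same symbol (GRCm38.p6).

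Tests ran on all genes that passed filterByExpr (minimum count 10, day as the group, 16280 genes) in R 4.3.3 with edgeR 4.0.16, by the quasi-likelihood F test, two-sided, with TMM factors, Benjamini-Hochberg adjustment and a threshold of 0.05. Genotype and day were fitted together (2 residual degrees of freedom), and the slope was genotype times log2 day after centring (1 residual degree of freedom). CPM used TMM-scaled totals. Single-day ratios used a prior count of 2 on the log2 scale and exact 95% counting intervals. The floor of 3 fragments was 0.0763 to 0.114 CPM. Both the intervals and the floor describe counting error alone, as each genotype and day had 1 library. The libraries carried no stated molecular identifiers, so repeat copies of a fragment could not be told apart.

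Alternatives were DESeq2 1.42.0, limma-voom (limma 3.58.1), other scalings and filters, counts per fragment, totals without Rn45s and leaving out each day pair. Scripts were tested on simulated data. The members, gene lists and naming rule were chosen with earlier results of these data known. Named genes were the 6 largest changes that passed in each direction (otherwise the 3 smallest p), the 3 farthest from the members' median each way, the 3 highest and lowest by RPKM, a fixed set with known roles, and up to 4 genes of each list. Overlapping table entries and the 10 genes lower on every day were looked at after values were seen. Single values of a few genes are not reported here. No column lacked a sample.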

Additional observations from a re-analysis of the deposited data

Results flagged for a closer look

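The share of counts taken by the ribosomal protein genes differed between genotypes in opposite directions on different days. It was lower in the Ezh2-deficient library by 0.898 percentage points at day 3 (5.04% in the Ezh2-deficient and 5.94% in the wildtype library), which is -0.898 as Ezh2-deficient minus wildtype. It was higher by 0.101 points at day 7 (3.57% Ezh2-deficient, 3.47% wildtype) and by 0.114 points at day 14 (3.11% Ezh2-deficient, 2.99% wildtype). What drew attention was the opposite sign of the single pair at day 3 and the single pairs at days 7 and 14. Whether the share differences differ between days was not tested, since each day has 1 pair.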

How the results depend on the processing

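The count of members that fell at day 14 against day 3 lay between 75 and 76 in 12 alternatives and was 73 without the day 7 pair. At day 7 against day 3 it was 60 with total counts as the scale, 74 without the day 14 pair or the genotype term, and 76 otherwise. Total counts moved the median of all genes at day 7 against day 3 to 0.189 (members -0.585) and at day 14 against day 7 to -0.155 (members -0.218). No member passed for genotype, for day 14 against day 7 or for the slope in any alternative run. The genotype median over members ran from -0.10 to 0.08 when a day pair was left out, and 22 members were above 0 with total counts and 14 without day in the model (median -0.08), against 33.

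With Rn45s out of the total, the share at days 3, 7 and 14 was 5.195%, 3.666% and 3.178% (Ezh2-deficient) and 6.049%, 3.532% and 3.055% (wildtype). With collagen genes out too, it was 5.95%, 4.047% and 3.772% (Ezh2-deficient) and 6.917%, 3.951% and 3.499% (wildtype). Of summed RPKM it was 16.31%, 11.87% and 10.62% (Ezh2-deficient) and 18.53%, 11.54% and 10.21% (wildtype). Genes near 0 turned sign. The genotype log2 fold change of Rps27 ran from -0.0161 (without the day 7 pair) to 0.379 (without day 3), and that of Rpl26 from -0.0127 (without day 14) to 0.442 (without day 3). The slope of Rpl3 was -0.00205 with total counts, and that of Rpl30 was -0.00227 with a minimum count of 50, -0.00172 with no filter and -0.033 with total counts. The cause of these shifts was not tested.

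The labels number no replicates, so no fit with a replicate number as a block was run. Day, which pairs the libraries, is already in the model. The slope could not be fitted without a day pair, for lack of residual degrees of freedom. Depth was not the limit for most members, whose counting intervals were narrow, but Rpl26 and Rps27 had at most 91 and 121 fragments per library.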
